A study of Mus musculus with 8 samples.

Results

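Of the 47204 distinct read sequences in the table of RISC-bound short RNAs (R-sRNAs), 760 had neither a miRNA name nor a name from any other small RNA list, and they are described here as unannotated reads. They were chosen by these 2 annotation columns alone, both reading noMatch, and no measured value entered the choice. Another 26201 sequences carried a mature miRNA name and 20243 carried some other RNA name only. The unannotated reads held 826 CPM on average over the 8 libraries (CPM scales each library to 1000000 reads), beside 959661 CPM for miRNAs and 31918 CPM for the other annotated reads.

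The R-sRNAs came from cortex and hippocampus of 8 female mice, 4 with the genotype 5XFADtg Rubicon+/- (het) and 4 with 5XFADtg Rubicon-/- (ko), aged 6 or 8 months by the study's methods. The study's results give 6 months for its comparison of R-sRNAs between these genotypes. All 8 mice carried the 5XFAD transgene, which expresses mutant human amyloid precursor protein and presenilin genes in neurons and leads to amyloid plaques, so no library is free of it. Rubicon is a negative regulator of autophagy, and het mice kept 1 intact copy. Both genotypes were on a mixed C57BL/6J/SJL background by the study's reporting summary. Argonaute proteins were captured with a GW182 peptide, and the bound short RNAs were cloned and sequenced.

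An Argonaute protein holds a short guide RNA and uses its seed, the bases that follow the first one, to find mRNAs that it silences. Most guides in brain are miRNAs, cut from hairpins with nearly fixed ends, and a read keeps a miRNA name only if it resembles an entry of the reference list. Under Death Induced by Survival gene Elimination (DISE), G-rich seeds in guides are toxic because they match sites in mRNAs of genes that cells need to survive. A read without a name still has a seed, so the table gives each one a seed viability score, averaged over 3 mouse cell lines that had received an siRNA with that 6mer seed (positions 2 to 7). These scores come from an earlier screen and were not measured in these brains.

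The unannotated reads that could be traced to mouse are shown first, since a known miRNA can be set beside each. Sequences are written 5′ to 3′ as RNA with positions 2 to 8 in capitals, and unannotated reads are numbered by their mean CPM. The first set is miR-574-5p, whose mature form in RefSeq (GRCm38.p6) lies on chr5:64970328-64970350, plus strand, within an intron of Fam114a1 on the same strand.
mmu-miR-574-5p: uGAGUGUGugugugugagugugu
sequence 2: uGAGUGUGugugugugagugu
sequence 7: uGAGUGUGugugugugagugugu
sequence 121: uGAGUGUGugugugugagu
Sequence 7 was the mature miRNA letter for letter, and sequences 2 and 121 ended earlier with the same start. The table named 22 sequences as the other arm, miR-574-3p, but 0 as miR-574-5p. The letters also occur in other mouse transcripts, so the hairpin is one possible source.

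The second set belongs to the miR-466 group, whose hairpins are rich in repeats of CA and GU. RefSeq places miR-466q on chr3:28419988-28420007, plus strand, in an intron of Tnik. GENCODE M21 (GRCm38) places the hairpins Mir466f-2 on chr2:10468675-10468768 and Mir466f-3 on chr2:10471953-10472046, plus strand, in an intron of Sfmbt2. They are shown because a base added at the 5′ end moves the seed.
mmu-miR-466q: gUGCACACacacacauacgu
sequence 5: uGUGCACAcacacacauacgu
sequence 38: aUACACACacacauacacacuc
sequence 53: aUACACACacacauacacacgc
Sequence 5 held the whole of miR-466q with 1 extra base at its start, which lies in the hairpin. Sequences 38 and 53 matched Mir466f-2 and Mir466f-3, and sequence 38 also another mouse transcript. No sequence in the table was named miR-466q or miR-466f (0 of each), although 62 sequences at a summed 72.4 CPM carried another miR-466 name.

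The third set lies 1 substitution from miR-124-3p, a miRNA abundant in neurons. The reference is the most abundant read that the table named miR-124-3p, at 14584 CPM, and positions are counted from 1 at the 5′ end.
most abundant miR-124-3p read: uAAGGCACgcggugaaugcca
sequence 3: uAAGGCACgcgguaaaugc
sequence 15: uAAGGCACgcggcgaaugc
sequence 17: uAAGGUACgcggugaaugc
sequence 32: uAAGUCACgcggugaaugc
sequence 98: uAAGGAACgcggugaaugc
sequence 112: uAAGGCACgccgugaaugc
All 6 were 19 nt long, with the substitutions G14A, U13C, C6U, G5U, C6A and G11C in this order. Those in sequences 17, 32 and 98 change the 6mer seed.

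The last set shows let-7c-5p, a miRNA of the let-7 family, which is abundant in mature neurons. RefSeq gives it 2 loci, chr16:77599672-77599693 in an intron of the host RNA Mir99ahg and chr15:85706616-85706637 in an exon of Lncppara, both on the plus strand.
mmu-let-7c-5p: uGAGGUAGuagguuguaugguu
sequence 13: uGAGGUAGuaguuguaugguu
Sequence 13 was 1 base shorter, with 1 G fewer than let-7c-5p past the seed. The remaining unannotated reads of high rank did not match the mouse sequences searched, and they are described without their letters.

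By sequence, the 760 unannotated reads fell into 6 sets, which were defined after the data were seen and are given with no test. A total of 44 matched a mouse miRNA hairpin exactly (75.2 CPM) and 15 matched another mouse transcript exactly (4.91 CPM). A further 59 were 1 edit (1 base changed, lost or gained) from a read named as a miRNA (76.3 CPM), and 103 were 1 edit from a read with another name (116 CPM). Another 36 lay within 2 edits of a single 19 nt sequence and formed the family of the most abundant member (113 CPM). The largest set, with 503 sequences and 441 CPM, matched nothing searched and held 53.3% of the unannotated CPM. The search covered annotated mouse transcripts and hairpins but no genome, so whether these reads, or those 1 edit from a read with another name, came from mouse was not tested, and every value below that pools the 760 includes them. Exact matches on the sense strand to GENCODE transcripts or RefSeq hairpins were thus found for 59 of 760 unannotated sequences (7.76%), against 26.8% of miRNA-named and 11.8% of other annotated sequences.

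Most unannotated reads were rare and seen in few libraries. Of the 760, 286 (37.6%) occurred in 1 library and 17 (2.24%) in all 8. The shares were 5.07% and 17.4% for miRNA-named and 13.2% and 7.73% for other annotated sequences. The median total of unannotated sequences was 10 reads over the 8 libraries, beside 15 for other annotated and 25 for miRNA-named sequences. The minimum was 8 in each class. By level their median was 0.516 CPM, beside 0.483 CPM for other annotated and 0.714 CPM for miRNA-named sequences. Het replicate 4 alone held 96 of the 286 sequences seen in 1 library and ko replicate 2 held 64. Only 8 had a mean of at least 10 CPM and 209 a mean of at least 1 CPM. When sequences that share 12 letters in a row or differ by 1 edit were joined, the 760 formed 380 families, of which 274 were single sequences.

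Library depth, recovered from the values as whole reads, was 509839, 1445313, 2554841 and 2634450 reads in het replicates 1 to 4 and 7845446, 19878054, 2313082 and 1010177 in ko replicates 1 to 4. The 2 deepest libraries were thus both ko. With 1 read worth 1.93 CPM in het replicate 1 but 0.0502 CPM in ko replicate 2, a member could be found at far lower levels in the latter. The number of unannotated sequences detected was 172, 191, 216 and 330 in het and 246, 404, 228 and 148 in ko. Depth counts only the retained sequences. These held 98.4%, 99.4%, 99.2% and 98.9% of the scaled library in het and 99.8%, 99.8%, 99.4% and 99.0% in ko. The part left out was larger than the unannotated part in every library, so shares and counts here describe the retained sequences.

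Unannotated reads made up 0.162% (95% Wilson interval 0.152 to 0.174), 0.0825% (0.0779 to 0.0873), 0.0517% (0.0490 to 0.0546) and 0.165% (0.160 to 0.170) of the reads in het replicates 1 to 4. In ko replicates 1 to 4 they made up 0.0256% (0.0245 to 0.0268), 0.0234% (0.0228 to 0.0241), 0.0755% (0.0720 to 0.0791) and 0.0817% (0.0763 to 0.0874). The intervals cover counting error only. The 2 deep ko libraries had the lowest shares and het replicates 1 and 4 the highest, and the groups overlapped. The mean was 0.115% ± 0.0571 in het and 0.0516% ± 0.0313 in ko (SD, n = 4 each), a difference of -0.0638 percentage points that did not pass an exact two-sided permutation test (p = 0.114, adjusted p = 0.267 over 7 measures). Without the 2 deep libraries the ko range, 0.0755% to 0.0817%, lay inside the het range.

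The share was lower in deeper libraries by Pearson's r alone. Against log10 of the reads, Pearson's r was -0.70 (exact permutation p = 0.0489) and Spearman's rho was -0.62 (exact permutation p = 0.115, n = 8). Without ko replicates 1 and 2, whose depth was farthest from the median, Pearson's r became -0.38 (exact permutation p = 0.458) and rho -0.09 (exact permutation p = 0.919), so the call was lost without these 2 libraries. Both are ko, and genotype and depth cannot be told apart there. With 1 library left out at a time, r passed without het replicate 4 (-0.89, exact permutation p = 0.00675) or ko replicate 4 (-0.75, exact permutation p = 0.0417) and missed the threshold without any of the other 6 (r from -0.72 to -0.56). Without the family of the most abundant sequence, found almost only in het replicate 4, r was -0.89 (exact permutation p = 0.00337, n = 8). In reads, the libraries held 828, 1192, 1321 and 4343 unannotated reads in het and 2012, 4656, 1746 and 825 in ko.

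The sets differed in how they spread over the libraries. Sequences 1 edit from a miRNA read summed to 67.6, 86.0, 98.6 and 59.7 CPM in het and 82.7, 62.3, 77.3 and 76.4 CPM in ko, a narrow range that included the deep libraries. Sequences matching miRNA hairpins summed to 92.7, 81.8, 61.7 and 89.4 CPM in het and 58.7, 50.7, 120 and 46.1 CPM in ko. In contrast, the sequences with no match summed to 1102, 510, 246 and 470 CPM in het and 74.5, 79.7, 461 and 583 CPM in ko. Both deep libraries lay below all others for this set, and the shallowest library was the highest. Sequences 1 edit from a read with another name followed the same order at its ends, with 332 CPM in het replicate 1 against 38.0 and 37.1 CPM for the 2 deep ko libraries.

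With every library reduced in calculation to 509839 reads, the expected number of unannotated sequences was 172, 149, 127 and 220 in het and 74.5, 77.9, 142 and 124 in ko. The deep ko libraries were lowest and the groups overlapped between 127 and 142, where 1 ko library lay within the het range. The means were 167 ± 39.7 and 105 ± 33.8 (SD, 4 libraries each), with an exact two-sided permutation p of 0.0571 ( 4 against 4 libraries allow no less than 0.0286). Without the deep libraries the difference went from -62.4 to -33.9 sequences (exact permutation p = 0.333).

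Unannotated reads were shorter than miRNA reads in every library. Weighted by CPM, their mean length was 20.1 ± 0.510 nt beside 21.7 ± 0.0417 nt for miRNAs (SD, n = 8), a difference of -1.69 nt that ran from -2.47 to -1.10 over the libraries (exact sign-flip permutation p = 0.00781, adjusted p = 0.0156 over 6 comparisons). No miRNA-named sequence was under 18 nt (0 of 26201), whereas 232 of 760 unannotated sequences (30.5%) and 13.6% of other annotated sequences were 15 to 17 nt. The test over all reads was thus partly set by which lengths carry a miRNA name. Among reads of at least 18 nt the difference was -0.61 nt and no longer passed (exact permutation p = 0.0312, adjusted p = 0.0625). Against other annotated reads, at 20.5 ± 0.189 nt, the difference of -0.49 nt did not pass (exact permutation p = 0.0547, adjusted p = 0.0820), with unannotated reads shorter in 6 of 8 libraries.

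Within the class, the length most common by CPM was 21 nt, with 140 sequences and 21.01% of the unannotated CPM. The next was 19 nt, with 81 sequences and 16.8% of the CPM, of which the family of the most abundant member and the miR-124-3p variants formed part. Reads of 15 nt (80 sequences, 8.43% of CPM) and 16 nt (89 sequences, 8.87%) formed a further group, of which 7 (4.14%) matched mouse exactly, beside 7.76% of all members. By length, 330 sequences (43.4%) were 20 to 23 nt, the usual span of a guide, beside 68.3% of miRNA-named sequences.

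Weighted by CPM, unannotated reads were richer in G and C than both other classes in all 8 libraries. Their GC content was 54.2% ± 2.97, against 44.6% ± 0.561 for miRNAs and 50.6% ± 1.90 for other annotated reads (SD, n = 8). The difference from miRNAs was 9.61 percentage points, between 6.36 and 13.2 over the libraries (exact sign-flip permutation p = 0.00781, adjusted p = 0.0156). The difference from other annotated reads was 3.64 points, between 1.78 and 6.75 (exact permutation p = 0.00781, adjusted p = 0.0156). This p is the smallest that 8 libraries allow. Without the 2 deep libraries the differences were 10.6 and 4.10 points, at an adjusted exact permutation p of 0.0625 each, since 6 libraries allow no lower unadjusted p than 0.0312. Among sequences with a mean of 10 CPM or more, of which 8 were unannotated, the difference from other annotated reads was 1.56 points and no longer passed (exact permutation p = 0.125, adjusted p = 0.15).

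The class also stood apart in measures given as description. Per 100 dinucleotides, weighted by CPM, unannotated reads held 10.4 CpG steps, against 2.61 in miRNAs and 5.28 in other annotated reads. CpG is depleted in most of the mouse genome, and within the class it was 1.56 in the hairpin matches, 8.58 in the miRNA variants, 10.4 in the sequences with no match and 19.8 in the family of the most abundant member. U was the first base for 42.7% of the unannotated CPM, against 56.8% for other annotated reads and 74.0% for miRNAs, whose loading into Argonaute favours a 5′ U. It was 87.7% in the variants of miRNA reads and 73.1% in the hairpin matches but 39.8% in the sequences with no match and 1.87% in the family of the most abundant member, which held 13.6% of the CPM. The letters CCA, the tail added to every tRNA, ended 61 unannotated sequences (8.03%), against 1.57% of miRNA-named and 5.19% of other annotated sequences, and none of the 59 exact mouse matches ended so (0 sequences).

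Simple repeats were nearly confined to unannotated reads. By a triplet score for low complexity above 2, 33 unannotated sequences (4.34%) were simple repeats, beside 1 of 26201 miRNA-named and 1 of 20243 other annotated sequences. Of the 33, 21 matched a miRNA hairpin, where they were 21 of 44 sequences, and 4 matched another mouse transcript. The sequences of miR-574-5p and miR-466q printed above show the pattern, runs of GU or CA.

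The seed viability of unannotated reads differed from that of the named classes by less than the spread between libraries when all members were counted. Weighted by CPM it was 57.2, 54.0, 59.9 and 61.8 in het and 53.0, 57.0, 57.3 and 53.3 in ko, on a scale where low scores mark toxic seeds. The mean over 8 libraries was 56.7 ± 3.15, beside 56.4 ± 0.786 for miRNAs and 55.7 ± 0.714 for other annotated reads. The differences were 0.27 (from -4.55 to 5.58 over the libraries, exact permutation p = 0.828, adjusted p = 0.828) and 1.0 (from -3.24 to 6.32, exact permutation p = 0.414, adjusted p = 0.497). Unannotated reads scored higher than miRNAs in 4 libraries and lower in 4. Among sequences with a mean of 10 CPM or more the differences were -8.75 (exact permutation p = 0.0391, adjusted p = 0.0781) and -6.74 (exact permutation p = 0.0703, adjusted p = 0.105). Counted by sequence, 188 of the 760 (24.7%) had a seed below 40 (called toxic here), beside 22.9% of miRNA-named and 21.7% of other annotated sequences, and 120 (15.8%) a seed above 80 (called nontoxic here), beside 15.4% and 12.2%.

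Between genotypes, viability was 58.2 ± 3.39 in het and 55.1 ± 2.31 in ko (SD, n = 4 each), a difference of -3.09 (exact two-sided permutation p = 0.171, adjusted p = 0.300). It was -1.38 without the family found almost only in het replicate 4, described below, and -1.89 without that library. The share of unannotated CPM with nontoxic seeds was 12.7%, 15.6%, 18.2% and 12.8% in het and 7.31%, 9.19%, 8.48% and 7.15% in ko. The groups did not overlap, but the difference of -6.78 percentage points did not pass the adjustment (exact permutation p = 0.0286, adjusted p = 0.10). It lay between -7.49 and -5.66 points with 1 library left out at a time. Mean length was 19.8, 19.5, 19.9 and 19.3 nt in het and 20.3, 20.3, 20.7 and 20.6 nt in ko, again with no overlap. Its difference of 0.87 nt had the same p-values (exact permutation p = 0.0286, adjusted p = 0.10), the smallest this design gives, and it was 0.38 nt among reads of at least 18 nt (exact permutation p = 0.457) and 0.13 nt among the 8 sequences that reached 10 CPM (exact permutation p = 0.657).

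The other measures overlapped between genotypes. The share of toxic seeds was 24.5% ± 7.69 in het and 30.9% ± 8.44 in ko (exact permutation p = 0.314, adjusted p = 0.367, n = 4 each), and the difference of 6.33 points was 2.59 without that family. It was 2.92 without ko replicate 4, 3.90 without het replicate 4, 9.58 without ko replicate 2 and 9.88 without het replicate 2. GC content was 54.3% ± 2.04 and 54.1% ± 4.05 (exact permutation p = 0.971, n = 4 each). G made up 33.5% ± 0.732 of seed bases in het and 36.1% ± 3.37 in ko (exact permutation p = 0.229, adjusted p = 0.320, n = 4 each), and the difference of 2.65 points was 1.21 without ko replicate 4, where G was 40.4%.

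The 5 seeds with the most unannotated CPM had different sources. GUACGC (75.9 CPM, viability 71.8) came from 21 members of the family of the most abundant sequence and was found at 607 CPM in het replicate 4 and at 0 in the 7 other libraries. Named reads with GUACGC held 14.7 CPM. GAGUGU (44.2 CPM, viability 39.2, just below the limit of 40) was the seed of the miR-574-5p reads printed above, but its 20 members also included sequences with no match. It stood at 46.3, 57.1, 27.2 and 52.6 CPM in het and 44.8, 19.9, 82.1 and 23.5 CPM in ko. Named reads with this seed held 2.14 CPM, so nearly all of it was in reads without a name. GCUGGC (39.8 CPM, viability 25.4, the lowest score of the 5) was at 88.8, 48.1, 25.6 and 26.3 CPM in het and 4.33, 3.01, 45.5 and 76.4 CPM in ko, lowest in the deep libraries. Named reads with GCUGGC held 114 CPM, more than the unannotated ones. AAGGCA (31.5 CPM, viability 57.3) is the seed of miR-124-3p, and named reads with it held 42908 CPM. CGACCG (19.9 CPM, viability 78.4) reached 52.1 CPM in het replicate 1, and it was at 78.6 CPM in ko replicate 3, but stayed between 0.254 and 16.9 CPM elsewhere. Named reads with CGACCG held 0.912 CPM.

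The most abundant unannotated sequence, sequence 1, was 20 nt long with 55% GC and occurred only in het replicate 4, at 329 CPM, with 0 in the 7 other libraries. Its family of 36 members summed to 900 CPM in that library, 1.93 CPM in het replicate 1, the value of 1 read, and 0 in the other 6. The 19 nt consensus of the family was not itself in the table (0 rows), although 23 members lay within 1 edit of it, 19 of them by 1 substitution, and held 821 CPM in het replicate 4. A further 7 sequences within 1 edit had another RNA name and held 152 CPM, also in het replicate 4 and in no other library. The family thus consisted of variants around a missing centre. By the study's methods, reads matching artificial sequences were removed before deposition, and size markers were run beside the samples on the gel. Whether either bears on the family was not tested. Without the family the unannotated share differed between genotypes by -0.0410 percentage points (exact permutation p = 0.229).

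The miR-574-5p reads were found in every library. The 9 members that matched the hairpin, 17 to 25 nt long, summed to 44.4, 43.3, 24.8 and 45.1 CPM in het and 35.5, 17.2, 65.3 and 11.8 CPM in ko, with the ko libraries spanning the whole het range. Sequence 2 was at 15.4, 30.3, 14.8 and 30.4 CPM in het and 19.7, 10.04, 38.2 and 1.96 CPM in ko. Its log2 difference of ko minus het was -0.81 ± 0.65 (SE; limma adjusted p = 0.973), and -0.11 without ko replicate 4. Sequence 7, the full mature form, was at 25.1, 10.3, 2.72 and 9.01 CPM in het and 8.40, 2.56, 16.3 and 9.80 CPM in ko (-0.20 ± 0.75, limma adjusted p = 0.988). For comparison, reads named as the partner arm miR-574-3p held 181 CPM on average.

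The 20 members that matched miR-466 hairpins summed to 34.8, 22.0, 36.1 and 24.8 CPM in het and 17.3, 29.4, 40.8 and 33.3 CPM in ko, with overlapping groups. Sequence 5, the form of miR-466q with an added 5′ base, was at 0, 5.50, 18.2 and 10.9 CPM in het and 3.56, 16.3, 14.2 and 21.6 CPM in ko. It was the only member of the 8 tested with a positive limma difference of log2(CPM + 1), 1.05 ± 0.92 (SE; limma adjusted p = 0.973), which was 0.17 without het replicate 1. Its absence from het replicate 1 allows up to 5.79 CPM, the value of 3 reads there. The table's seed for sequence 5 was GUGCAC, with a viability of 54.1.

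The 20 unannotated variants of miR-124-3p summed to 44.4, 48.8, 64.5 and 34.5 CPM in het and 49.6, 34.6, 42.5 and 55.8 CPM in ko. Sequence 3 (G14A) was the most abundant, at 25.1, 13.8, 28.3 and 15.8 CPM in het and 18.4, 12.1, 5.16 and 25.5 CPM in ko (log2 difference -0.55 ± 0.49, SE; limma adjusted p = 0.973, and -0.14 without ko replicate 3). As a share of the 19 nt miR-124-3p read without a substitution it was 0.259%, 0.112%, 0.299% and 0.227% in het and 0.212%, 0.193%, 0.0633% and 0.306% in ko. Ko replicate 3 was lowest and the 2 deep libraries lay in the middle. Sequences 15, 17 and 32 followed at 0.0942%, 0.0905% and 0.0449% of the same read.

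Of the single substitutions of the 19 nt miR-124-3p read, the table held 53 sequences, of which 6 kept the miRNA name, 41 had another RNA name and 6 had none. The 6 named as miRNA kept 18 letters in a row, while the 6 without a name, substituted at positions 5 to 14, kept 10 to 14. The 41 with another name kept 9 to 17, so the length of the shared run did not separate them from the unannotated reads. Nor did it for the 19 nt miR-26a-5p read, where the 7 substituted reads named as miRNA kept 10 to 18 letters and the 2 without a name 12 and 13. For the seed, C6U in sequence 17 changed AAGGCA (viability 57.3) to AAGGUA (73.6), and G5U in sequence 32 changed it to AAGUCA (70.2). Over all 59 unannotated reads 1 edit from a miRNA read, 40 were substitutions and 19 were 1 base shorter than the named read, and the median longest shared run was 12 letters.

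Sequence 13, the shortened let-7c-5p, was at 5.79, 11.0, 6.21 and 7.13 CPM in het and 12.6, 10.6, 17.2 and 0.980 CPM in ko. It kept the let-7 seed GAGGUA (viability 50.3), and named let-7c-5p reads held 49398 CPM.

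Among the other sequences of high rank, sequences 4 and 6 shared the seed GCUGGC and belonged to a family of 21 members. Sequence 4 (22 nt) was at 34.8, 15.8, 8.93 and 13.1 CPM in het and 2.67, 1.21, 24.9 and 24.5 CPM in ko (log2 difference -0.995 ± 0.78, SE; limma adjusted p = 0.973). Sequence 6 (21 nt) was at 32.8, 19.3, 6.60 and 4.13 CPM in het and 0.254, 0.351, 6.45 and 16.7 CPM in ko (-1.73 ± 1.09, limma adjusted p = 0.973). Both were lowest in the 2 deep ko libraries, and without those libraries the difference of sequence 4 was 0.59 and of sequence 6 was -0.16.

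Sequences 8, 9 and 10 were each carried by 1 or a few libraries. Sequence 8 (21 nt, 71.4% GC) was at 23.2, 0.688, 0.777 and 10.5 CPM in het and 0.254, 0.402, 43.4 and 4.90 CPM in ko (-0.21 ± 1.53 on the log2 scale, SE; limma adjusted p = 0.990). The sign of this difference changed between settings, with 0.62 by edgeR and 1.59 without the deep libraries but -0.77 without het replicate 2. Sequence 9 (21 nt) stood at 52.1 CPM in het replicate 1 and at 0 to 9.01 CPM elsewhere. Sequence 10 (24 nt) stood at 67.6 CPM in ko replicate 4 and at 0 to 5.16 CPM elsewhere. Sequences 11 and 12, both 19 nt members of the family of sequence 1, were at 75.5 and 71.7 CPM in het replicate 4. The member ranked next after sequence 12, at 9.21 CPM, was sequence 13 at 8.94 CPM.

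No unannotated sequence passed the test between genotypes. Of the 8 that reached a mean of 10 CPM or more, 0 had an adjusted limma p under 0.05 on log2(CPM + 1), where 0.485% of all 3299 sequences tested did, and 0 had an unadjusted p under 0.05, where 5.3% of all did. On the recovered reads edgeR also called 0 of the 8, where it called 14 of all 3299. It gave 1 of the 8 an unadjusted p under 0.05 (0.00399), that of sequence 1, which was present in het replicate 4 alone. DESeq2 called 0 of the 7 to which it gave an adjusted p, sequence 1 having none, where it called 27 of all 3299 fitted. At a mean of at least 1 CPM, 0 of 209 passed (0.213% of 16442 did), and 10 had an unadjusted limma p under 0.05, or 4.78% against 5.27% of all. All 10 were lower in ko, where 2.84% of all sequences were, and 0 were higher, where 2.43% were. A mean over all libraries admits sequences that are high in one genotype only, so these counts are a description. Of the 209, 19 were members of the family found almost only in het replicate 4, and 0 of these 19 were among the 10. Without the 2 deep ko libraries, 0 of 275 passed (0.344% of 17462 did), 2 were lower at an unadjusted p under 0.05 (2.61% of all) and 6 were higher (2.87% of all). edgeR on all 8 libraries at a mean of at least 1 CPM gave 68 of the 209 an unadjusted p under 0.05, 65 of them lower in ko, where 6.2% and 3.94% of all 16442 sequences were. After adjustment it passed 0 of the 209 and 27 of all 16442. Without the 19 members of that family the unadjusted count was 49 of 190.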

How the data were processed

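Small RNA bound to Argonaute was sequenced in 8 libraries, 4 het and 4 ko, grouped by the sample titles. The authors trimmed reads (Trim Galore per the processing notes), removed rare reads and matched the rest to mouse small RNA lists with BLAST. They then removed reads that matched artificial sequences and scaled each library to 1000000 reads. The deposited values are CPM. The deposited viability score is the authors' mean over 3 mouse cell lines. The limits of 40 (toxic) and 80 (nontoxic) were set for the re-analysis. Genome build and the versions of the trimming and matching tools are not given in the sources used here. Removing rare reads by their total favours sequences from deep libraries.

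All values (100%) were whole multiples of 1 read within 0.0006 CPM plus 1e-06 of the value, as deposited values are rounded. This gave depths of 509839 to 19878054 reads over the retained sequences. No 2 libraries agreed within sampling noise. Measures per library, with each sequence weighted by its CPM, went through an exact permutation test over 70 regroupings of 4 against 4. Classes were compared by sign flips over 8 libraries, with Benjamini-Hochberg adjustment within each family. Sequences averaging 10 CPM or more were fitted together with limma 3.58.1 (trend, robust) in R 4.3.3 on log2(CPM + 1), with no covariate. As values are not counts, edgeR 4.0.16 and DESeq2 1.42.0 served as alternatives on recovered reads. The fits were tested on simulated data. Python 3.11.15, numpy 2.4.6, pandas 2.3.3 and scipy 1.17.1 were used. Reads were matched exactly to GENCODE M21 transcripts and RefSeq hairpins. No genome sequence was searched.

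Sequences were named by rule, the 12 with the highest mean CPM and the 3 smallest limma p-values in each direction, plus the 5 seeds with most CPM. Only 1 tested sequence had a positive limma difference of log2(CPM + 1), ko minus het. Letters were printed for exact matches to a miRNA hairpin and for reads 1 edit from a read named as a miRNA. Sequences 13, 15, 17, 32, 38, 53, 98, 112 and 121 were chosen after their values were seen. The members and lists were chosen with earlier results of these data known. Alternatives were other pseudocounts (0.1 and 10), filters, subsets of reads, median centring, the replicate number as a block, and leaving out libraries.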

Additional observations from a re-analysis of the deposited data

Results flagged for a closer look

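In groups of 4 libraries, the gap between an extreme library and the rest, divided by the range, was examined for 62 groups of values, and 11 exceeded Dixon's 95% limit. Chance gives about 1 in 20 for values chosen without regard to level, but sequences and seeds ranked by mean CPM can enter the list through 1 high library, so that rate does not hold for them.

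Het replicate 4 stood apart for the family of the most abundant sequence (899.6 CPM, others 0 to 1.93), its seed GUACGC (607 CPM, others 0), sequence 1 (329 CPM, others 0), sequence 11 (75.5 CPM, others 0) and sequence 12 (71.7 CPM, others 0 to 1.93). These are 1 pattern, since the sequences and the seed belong to the same family.

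Het replicate 1, the shallowest library, stood apart for the sequences 1 edit from a read with another name (332 CPM, others 102 to 134) and for sequence 9 (52.1 CPM, others 1.38 to 9.01). Ko replicate 3 stood apart for the miRNA hairpin matches (120 CPM, others 46.1 to 58.7), for seed CGACCG (78.6 CPM, others 0.254 to 7.84) and for sequence 8, which carries this seed (43.4 CPM, others 0.254 to 4.90). Ko replicate 4 stood apart for sequence 10 (67.6 CPM, others 0.10 to 5.16).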

How the results depend on the processing

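The replicate number as a block, by sign flips over 4 pairs that allow no p under 0.125, changed no call: the adjusted p was 0.438 for the share, mean length, nontoxic share and seed G, and 0 unannotated sequences were called. Same-numbered libraries were correlated after the genotype mean of each sequence was subtracted, so the values do not measure how alike whole libraries were. These correlations were -0.01, 0.13, -0.13 and 0.15. As 1 of 4 het libraries correlated best with its own number, the numbers were not taken to pair mice.

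Leaving out each library gave differences in GC between -1.80 and 0.93 points, in viability against miRNA between -0.49 and 0.96, and in length against other annotated reads between -0.61 and -0.38 nt. The last passed without ko replicate 3 or without ko replicate 4 (-0.59 and -0.61 nt, adjusted exact permutation p = 0.0469 each) and with each distinct sequence counted once (-0.87 nt), where viability against miRNA was -0.27. The r of share and depth lay between -0.89 and -0.56, an alternative added after seeing the data, and passed without het replicate 4 or ko replicate 4 alone. No other call of the tests run this way changed. Without the 2 deep libraries, GC between genotypes was 3.13 points, and length against miRNA (-1.78 nt) and GC against miRNA (10.6) and other annotated reads (4.10) no longer passed, since 6 libraries allow no lower p. With members of at least 10 CPM, which are 8 sequences, mean length between genotypes was 0.13 nt, the toxic share was -0.82, seed G -0.14, viability against miRNA -8.75 and against other annotated reads -6.74, length against other annotated reads 0.25 nt, GC against them 1.56 points and r with depth -0.26, none of them past the threshold. The nontoxic share gives no value there, since no seed of these 8 scored above 80. The r with depth was -0.38 without ko replicates 1 and 2. Among alternatives chosen after seeing the data, viability against miRNA was -0.59 without the family of the most abundant sequence, where r with depth was -0.89 (exact permutation p = 0.00337), and length against miRNA was -0.61 nt among reads of at least 18 nt.

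Of single sequences, sequence 4 turned to 0.59 without the deep libraries and sequence 7 to 0.42 there, with -0.69 to 0.24 over the 6 libraries whose omission left it at 10 CPM, the latter without ko replicate 2. Sequence 8 was positive at a pseudocount of 10 (0.029), by edgeR (0.62, and 0.71 at a mean of 1 CPM), by DESeq2 (0.52), without het replicate 4 (0.15), ko replicate 1 (0.41) or ko replicate 2 (0.36) and without the deep libraries (1.59), with -0.77 to 0.41 over the 6 libraries whose omission left it at 10 CPM. Sequences 7 and 8 fell under the filter without het replicate 1 or ko replicate 3, where both were highest. The cause of these changes was not tested. At a mean of at least 100 CPM no unannotated sequence remained.

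Depth and genotype overlap, since both deep libraries were ko. Values seen as 1 to 3 reads are imprecise, and 8 reads over all libraries is the floor of the table.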
